A study of Mus musculus with 12 samples.

Results

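The genes described here are 36 mouse stress-response genes, 36 of the 18926 genes listed in the deposited tables, measured by RNA sequencing in tumorspheres of the mouse gastric cancer cell line S1. They were taken by symbol from a fixed list with an amino-acid stress (ATF4) arm of 20 genes and an endoplasmic reticulum (ER) arm of 16 genes, and all 36 were present in all 12 tables. The ATF4 arm holds the transcription factors and regulators *Atf4*, *Ddit3*, *Trib3*, *Cebpb*, *Nupr1*, *Ppp1r15a*, *Sesn2* and *Ddit4*, the glutathione-degrading enzyme gene *Chac1*, the amino-acid and one-carbon enzymes *Asns*, *Psat1*, *Phgdh*, *Psph*, *Shmt2* and *Mthfd2*, the transporters *Slc7a11*, *Slc7a5* and *Slc3a2*, and the tRNA synthetases *Aars* and *Gars*. The ER arm holds the sensors and transcription factors *Ern1*, *Atf6* and *Xbp1*, the chaperones and folding enzymes *Hspa5*, *Hsp90b1*, *Calr*, *Canx*, *Pdia3*, *Pdia4*, *Pdia6*, *Dnajb9*, *Sdf2l1*, *Creld2* and *Manf*, and the ER-associated degradation genes *Herpud1* and *Edem1*.

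Cells that lack amino acids, heme or folding capacity in the ER phosphorylate the initiation factor eIF2, which lowers general protein synthesis while ATF4 protein is translated more. ATF4 then turns on genes for amino-acid synthesis, amino-acid import and tRNA charging, together with *Ddit3* and *Trib3*, and *Ppp1r15a*, whose product dephosphorylates eIF2. Unfolded protein in the ER is sensed by PERK, which feeds into ATF4, by IRE1 (encoded by *Ern1*), which splices *Xbp1* mRNA, and by ATF6, and the last pair act on chaperone and degradation genes. Splicing of *Xbp1*, cleavage of ATF6 and translation of *Atf4* are not seen in gene-level mRNA counts.

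The study asked how loss of *Nf2*, a regulator of the Hippo/YAP pathway, and of *Rasa1*, a Ras GTPase-activating protein, changes gastric cancer stem cells. S1 came from a ChetPS mouse gastric cancer, which carries engineered Cdh1F/+, Trp53F/F and Smad4F/F alleles, so all 4 groups share that background, stable Cas9 and a lentiviral guide RNA. The groups were control (non-targeting guide or intact backbone), Nf2-KO, Rasa1-KO and double-KO, with 3 libraries each. They were grown in low-attachment plates, for which the labels of all 12 libraries name a serum-free medium with EGF, N-acetylcysteine and GlutaMAX or, as an alternative, a commercial tumorsphere medium, and the study's methods name the first. The labels call the cell type a monolayer cell. The study describes the points in its ordination of these RNA profiles as technical replications, and no label names separate cultures. Here n = 3 therefore counts libraries, and the SDs, SEs and p-values measure the spread between these libraries, not between cultures. 1 control and 1 Rasa1-KO library have no number in their title and are called unnumbered here.

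Library totals ran from 43818139 (control 2) to 96674463 (labelled double-KO 1) gene counts, and 7S RNAs took 7.17% to 13.9% of them. *Nf2* mRNA went against the labels: in CPM (read counts per fixed library total, scaled by TMM factors), control had 58.2 ± 2.82, Nf2-KO 13.6 ± 0.631, labelled Rasa1-KO 11.9 ± 0.253 and labelled double-KO 58.9 ± 3.30 (mean ± SD, n = 3). The names of the deposited tables exchange the last 2 groups, so those groups are called labelled Rasa1-KO and labelled double-KO throughout. *Rasa1* mRNA was below every control library in both of them, at 31.9 ± 2.27 and 20.6 ± 2.80 against 71.3 ± 9.54. Only labelled Rasa1-KO had both mRNAs below every control library, which goes with the table names and not with the titles. *Ccn1* and *Ccn2*, YAP target genes that the study names and that were looked at here after the labels had come into doubt, had 43.0 ± 22.8 and 290.3 ± 116 CPM in control and 399 ± 15.2 and 391 ± 16.5 in Nf2-KO. They had 154 ± 1.91 and 454 ± 8.03 in labelled Rasa1-KO and 75.7 ± 43.9 and 325 ± 109 in labelled double-KO, so that both were higher in every labelled Rasa1-KO library than in any labelled double-KO library. If the titles are right the values stand as labelled, and if the table names are right each value of the libraries labelled Rasa1-KO is one of double-KO cells and the reverse. The control unnumbered library and control 2 stood apart from each other in many of the members, which is given beside each result it touches. The marker sums that follow are CPM without the TMM factors. Summed CPM of the 6 epithelial markers in the tables was 4243 to 6365 in control, 4987 to 5356 in Nf2-KO, 6970 to 7225 in labelled Rasa1-KO, above every control, and 6292 to 6903 in labelled double-KO. Of the 6, *Cdh1* and *Epcam* fell in Nf2-KO, and 3 were called higher and 2 lower in labelled Rasa1-KO. Summed CPM of the 5 fibroblast markers in the tables was 71.0 to 959 in control, 6941 to 7360 in Nf2-KO, 2324 to 2481 in labelled Rasa1-KO and 108 to 268 in labelled double-KO. The 2 leukocyte markers in the tables summed to at most 21.6 CPM and the 2 endothelial markers to at most 1.76 CPM in any library. The part of these markers in the results below was not tested. In bulk libraries, fewer cells with a transcript and less of it per cell cannot be told apart.

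The ATF4 arm was higher in 2 of the 3 knockout groups, and the ER arm had calls in both directions. In Nf2-KO against control, 16 of the 20 ATF4-arm members passed the test and all 16 were higher, at a background of 20.6% of all 18053 tested genes higher and 22.2% lower (edgeR's quasi-likelihood test, Benjamini-Hochberg adjusted p under 0.05). The median log2 fold change was 0.98 over the ATF4 arm, 0.32 over the ER arm and -0.07 over all genes tested. In the ER arm 5 of 16 members rose (*Hspa5*, *Hsp90b1*, *Canx*, *Pdia6* and *Manf*), 3 fell (*Xbp1*, *Herpud1* and *Ern1*) and 8 did not pass. The 3 that fell were no more than the share of all genes that were lower.

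The libraries labelled Rasa1-KO had much the same layout. There 15 ATF4-arm members were higher and 1, *Slc7a11*, was lower, at a background of 19.7% higher and 22.2% lower, and the median was 0.66 against -0.08 over all genes. In the ER arm 3 members (*Hspa5*, *Hsp90b1* and *Pdia6*) rose and the same 3 fell, with a median of 0.18. Both of these counts were no more than the shares of all genes. Both comparisons use the same control libraries, and 15 ATF4-arm and 6 ER-arm members were called in the same direction in each. The share of all genes called alike in both was not counted, so these joint counts are no result about the members.

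In the libraries labelled double-KO only *Trib3* and *Slc7a5* of the ATF4 arm and *Ern1* of the ER arm passed the test against control, all higher, at a background of 4.0% higher and 2.46% lower. The medians were 0.32 and 0.11, against -0.04 over all genes. Both counts depended on the control unnumbered library. Without it 14 ATF4-arm and 6 ER-arm members were called, all higher, at a background that rose to 17.2% higher and 12.9% lower. With replicate numbers read from the table names as a replicate block, 7 ATF4-arm members (all higher) and 1 ER-arm member were called in labelled double-KO against control, at a background of 8.03% higher and 5.82% lower. The ER-arm counts of the other groups also moved with these settings, together with those of all genes. Without the control unnumbered library, 13 ER-arm members (9 higher, 4 lower) were called in Nf2-KO, at a background of 30.6% higher and 31.0% lower, and 14 (9 higher, 5 lower) in labelled Rasa1-KO, at 30.3% and 30.2%. With the block by table names there were 14 (10 higher, 4 lower) in Nf2-KO, at a background of 26.3% higher and 26.9% lower, and 11 (8 higher, 3 lower) in labelled Rasa1-KO, at 25.8% and 26.2%. The ATF4-arm counts of these groups moved by less than 1.5 times.

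**Figure D1:**
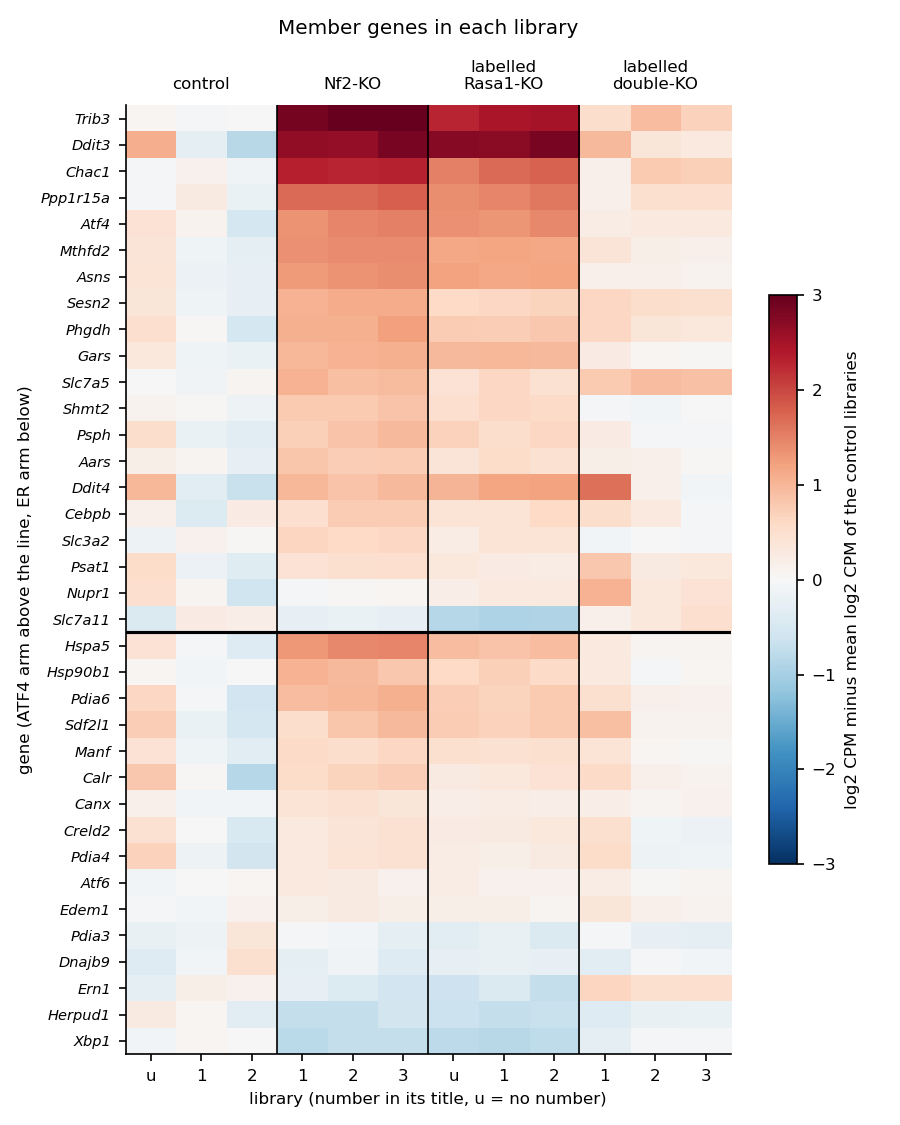
Heat map of the 36 members (rows, ordered by their change in Nf2-KO within each arm) in the 12 libraries (columns). Colour is log2 CPM minus the mean log2 CPM of the 3 control libraries. Most of the ATF4 arm is red in Nf2-KO and labelled Rasa1-KO, *Slc7a11* is blue in labelled Rasa1-KO, and the ER arm runs from red (*Hspa5*) to blue (*Xbp1*).

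Averaged over the members of an arm, the log2 difference from the control mean separated the groups by the ATF4 arm more than by the ER arm. The ATF4-arm mean was 1.11, 1.14 and 1.20 in the 3 Nf2-KO libraries and 0.87, 0.92 and 0.94 in labelled Rasa1-KO. It was 0.47, 0.32 and 0.28 in labelled double-KO and 0.30, -0.05 and -0.25 in control unnumbered, 1 and 2. No Nf2-KO or labelled Rasa1-KO library overlapped control, whereas the lowest labelled double-KO value lay below control unnumbered.

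The ER-arm mean was 0.27, 0.33 and 0.30 in Nf2-KO, 0.14, 0.14 and 0.13 in labelled Rasa1-KO, 0.27, 0.03 and 0.03 in labelled double-KO and 0.22, -0.04 and -0.18 in control. Labelled double-KO 1 lay with Nf2-KO and above its own group, and control unnumbered lay above labelled Rasa1-KO. In the control group, the library with the highest member values also had the highest 7S share (11.2%, against 9.15% and 7.17% in control 1 and 2), and labelled double-KO 1 had the highest of its group (13.9%, against 11.99% and 9.12%). The part of that difference in the results was not tested. The members together took 0.596% (control 2) to 1.01% (Nf2-KO 2) of all counts.

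**Figure D2:**
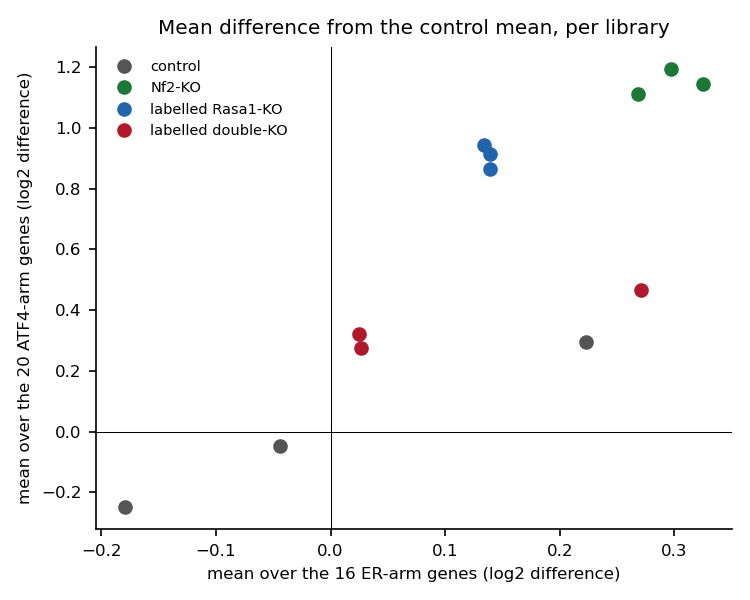
Each point is 1 library, with the mean log2 difference from the control mean over the 16 ER-arm genes on the horizontal axis and over the 20 ATF4-arm genes on the vertical axis. Nf2-KO and labelled Rasa1-KO libraries lie at 0.87 or higher on the vertical axis, and labelled double-KO and control libraries at 0.47 or lower.

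Among the ATF4-arm regulators, *Atf4* itself was measured at 306, 241 and 155 CPM in control unnumbered, 1 and 2. It was 569.6, 624 and 639.6 in Nf2-KO 1, 2 and 3, 586, 567 and 607 in labelled Rasa1-KO unnumbered, 1 and 2, and 264, 274 and 274 in labelled double-KO 1, 2 and 3. Every Nf2-KO and labelled Rasa1-KO library was above every control library, and the labelled double-KO libraries lay within the control range. The log2 fold change was 1.39 ± 0.19 (adjusted p = 1.3e-04) in Nf2-KO and 1.33 ± 0.19 (adjusted p = 2.2e-04) in labelled Rasa1-KO, as edgeR estimate ± SE. In labelled double-KO it was 0.21 ± 0.19 (adjusted p = 0.57).

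*Ddit3*, which encodes the pro-apoptotic factor CHOP, was at 47.8, 18.5 and 12.7 CPM in control. The 3 Nf2-KO libraries had 141, 140.2 and 162 and the 3 labelled Rasa1-KO libraries 148, 146 and 161, while those labelled double-KO had 43.8, 28.7 and 27.3. Control unnumbered was well above the other control libraries, yet all 6 Nf2-KO and labelled Rasa1-KO libraries lay above it. The log2 fold changes were 2.49 ± 0.40 (adjusted p = 3.9e-04) and 2.52 ± 0.40 (adjusted p = 4.3e-04), and 0.34 ± 0.38 (adjusted p = 0.66) in labelled double-KO. The gene model of *Ddit3* overlaps those of *Mars* and *Mbd6*, and whether the counting used strand is not given, so reads of these genes may be shared.

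*Trib3*, a pseudokinase gene that ATF4 and CHOP switch on, changed most of all members in Nf2-KO, and its control libraries lay close together, at 9.43, 8.79 and 9.07 CPM. It reached 66.9, 72.2 and 74.3 in Nf2-KO, 44.6, 49.8 and 51.5 in labelled Rasa1-KO and 13.1, 17.4 and 14.7 in labelled double-KO. No 2 of these 4 groups overlapped. The change was 7.82-fold in Nf2-KO, 5.34-fold in labelled Rasa1-KO and 1.66-fold in labelled double-KO, with log2 values of 2.97 ± 0.12 (adjusted p = 2.2e-08), 2.42 ± 0.12 (adjusted p = 1.1e-07) and 0.73 ± 0.12 (adjusted p = 0.0035).

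*Chac1*, which encodes an enzyme that breaks down glutathione, followed the same order at lower level. Control libraries had 5.09, 5.69 and 4.80 CPM and Nf2-KO libraries 26.1, 25.2 and 25.6. Those labelled Rasa1-KO had 14.8, 16.8 and 17.7 and those labelled double-KO 5.72, 8.93 and 8.51, the first of which lay just above the highest control. The groups did not overlap, but the labelled double-KO value did not pass. The log2 fold changes were 2.30 ± 0.17 (adjusted p = 9.8e-07), 1.66 ± 0.16 (adjusted p = 1.5e-05) and 0.57 ± 0.16 (adjusted p = 0.057) in that order of groups.

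*Ppp1r15a*, the gene of the regulatory subunit GADD34 that directs a phosphatase to eIF2, was at 29.0, 36.4 and 26.2 CPM in control. It was at 98.8, 98.9 and 104 in Nf2-KO, at 79.8, 84.1 and 90.9 in labelled Rasa1-KO and at 33.6, 42.1 and 42.7 in labelled double-KO. The first 2 knockout groups lay wholly above control, with log2 fold changes of 1.72 ± 0.14 (adjusted p = 2.1e-06) and 1.48 ± 0.14 (adjusted p = 1.0e-05), and the last overlapped it (0.37 ± 0.13, adjusted p = 0.13).

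*Sesn2*, which encodes a leucine-binding inhibitor of mTORC1, was 16.6 ± 3.91 CPM in control, 34.7 ± 0.989 in Nf2-KO, 25.3 ± 0.617 in labelled Rasa1-KO and 23.7 ± 1.29 in labelled double-KO. It rose in the first 2 by 1.06 ± 0.14 and 0.60 ± 0.14 on the log2 scale (adjusted p = 1.0e-04 and 0.0051). In labelled double-KO it stood at 0.51 ± 0.14 and did not pass (adjusted p = 0.052), though these libraries lay above every control library. *Cebpb*, a bZIP factor that can pair with ATF4, rose in Nf2-KO (0.66 ± 0.18, adjusted p = 0.011) and had 0.45 ± 0.18 (adjusted p = 0.06) in labelled Rasa1-KO.

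*Ddit4*, an mTORC1 inhibitor gene also known as a hypoxia target, passed in no comparison. Its CPM was 132, 52.8 and 41.7 in control and 209.5, 74.0 and 62.3 in labelled double-KO, so that the unnumbered control and labelled double-KO 1 lay far above their groups. The Nf2-KO libraries had 133, 120.5 and 129.9 and the labelled Rasa1-KO libraries 134, 151 and 153. *Nupr1*, which encodes a small stress-induced nuclear protein, spread in the same 2 groups (129, 96.7 and 59.8 in control, 187, 112 and 122 in labelled double-KO) and passed in none either. Without control unnumbered, *Ddit4* passed as higher in all 3 knockout groups and *Nupr1* in labelled double-KO.

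**Figure D3:**
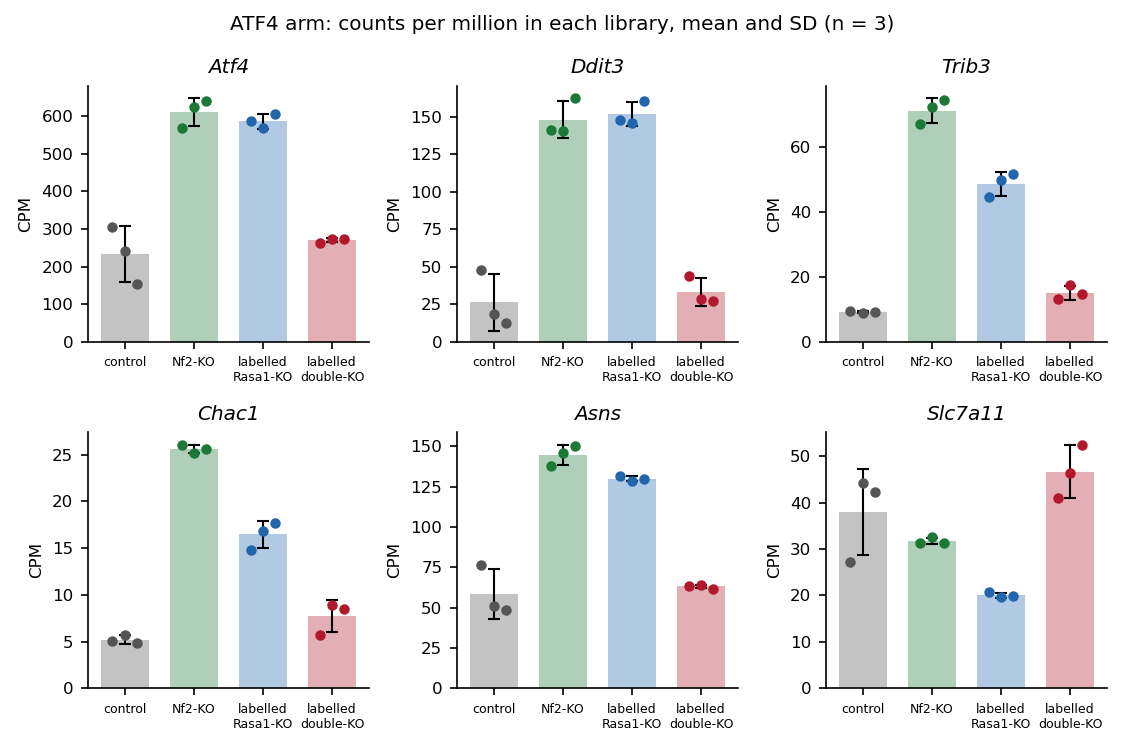
CPM (vertical axis, linear from 0) of 6 ATF4-arm genes in the 4 groups. Points are libraries, bars are means and whiskers are SDs (n = 3). *Atf4*, *Ddit3*, *Trib3*, *Chac1* and *Asns* are high in Nf2-KO and labelled Rasa1-KO, and *Slc7a11* is lowest in labelled Rasa1-KO.

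The enzymes of asparagine, serine and one-carbon synthesis were higher in both of these groups, apart from *Psat1*, which did not pass. *Asns*, which makes asparagine, was at 76.3, 50.9 and 48.3 CPM in control, 138, 146 and 150.5 in Nf2-KO, 132, 129 and 129.8 in labelled Rasa1-KO and 63.7, 63.9 and 61.9 in labelled double-KO. The labelled double-KO libraries lay between the control libraries, and the other knockout libraries above them, with log2 fold changes of 1.31 ± 0.15 (adjusted p = 3.1e-05) and 1.15 ± 0.15 (adjusted p = 1.0e-04).

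*Mthfd2*, a mitochondrial folate enzyme gene, was at 34.5, 24.2 and 21.8 CPM in control, 67.7, 70.2 and 70.5 in Nf2-KO and 58.4, 59.9 and 59.1 in labelled Rasa1-KO. It rose by 1.37 ± 0.15 and 1.14 ± 0.15 on the log2 scale (adjusted p = 2.5e-05 and 1.3e-04). *Shmt2*, the gene of the mitochondrial serine hydroxymethyltransferase, rose less, by 0.80 ± 0.09 in Nf2-KO and 0.56 ± 0.09 in labelled Rasa1-KO (adjusted p = 3.1e-05 and 5.2e-04), and stood at -0.06 ± 0.09 in labelled double-KO.

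The 3 enzymes that make serine from a glycolytic intermediate did not all pass. *Phgdh*, the first, rose by 1.05 ± 0.20 in Nf2-KO and 0.71 ± 0.20 in labelled Rasa1-KO (adjusted p = 0.0015 and 0.015). *Psph*, the last, rose by 0.80 ± 0.19 and 0.56 ± 0.19 (adjusted p = 0.0059 and 0.034), and its value in labelled Rasa1-KO lost its call when any of the labelled Rasa1-KO libraries, control 1 or control 2 was left out. *Psph* overlaps *Cct6a*, which had 285219 counts over all libraries against 28460 for *Psph*. *Psat1*, the middle step, had 416, 250 and 222 CPM in control and 382, 397 and 402 in Nf2-KO, and passed in no comparison. The Nf2-KO libraries lay above control 1 and 2 and below control unnumbered. The log2 fold change was 0.41 ± 0.21 (adjusted p = 0.14) in Nf2-KO and 0.20 ± 0.21 (adjusted p = 0.47) in labelled Rasa1-KO.

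The transporters differed among themselves. *Slc7a5* and *Slc3a2* encode the light and heavy chains of a transporter for large neutral amino acids. *Slc7a5* was at 67.0, 61.8 and 70.6 CPM in control, 136, 123 and 128 in Nf2-KO, 89.3, 101 and 91.2 in labelled Rasa1-KO and 115, 125 and 123 in labelled double-KO. All 9 knockout libraries lay above the controls, and the labelled double-KO libraries lay above the labelled Rasa1-KO libraries, unlike most of the arm. Its log2 fold changes against control were 0.96 ± 0.09 (adjusted p = 9.0e-06), 0.50 ± 0.09 (adjusted p = 0.0012) and 0.86 ± 0.09 (adjusted p = 4.2e-04).

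*Slc3a2* rose by 0.62 ± 0.10 in Nf2-KO and 0.34 ± 0.10 in labelled Rasa1-KO (adjusted p = 3.4e-04 and 0.014), and was -0.05 ± 0.10 in labelled double-KO. The latter call was lost when labelled Rasa1-KO 1 or 2 was left out.

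*Slc7a11*, the cystine importer xCT, which pairs with the same heavy chain, moved the other way. It was at 27.3, 44.2 and 42.3 CPM in control, 31.3, 32.5 and 31.3 in Nf2-KO, 20.6, 19.7 and 19.8 in labelled Rasa1-KO and 41.0, 46.3 and 52.5 in labelled double-KO. All labelled Rasa1-KO libraries were below all others, and the log2 fold change there was -0.92 ± 0.16 (adjusted p = 9.4e-04). In Nf2-KO the value was -0.26 ± 0.16 (adjusted p = 0.21), and control unnumbered lay below the Nf2-KO libraries. Without control unnumbered, *Slc7a11* passed as lower in Nf2-KO too.

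The 2 tRNA synthetase members rose in both groups. *Gars*, for glycine, rose by 1.01 ± 0.13 in Nf2-KO and 0.96 ± 0.13 in labelled Rasa1-KO, and *Aars*, for alanine, by 0.77 ± 0.11 and 0.46 ± 0.11 (adjusted p = 8.2e-05 and 1.5e-04 for the first, 2.4e-04 and 0.0077 for the second). *Aars* overlaps *Ddx19b*, a gene with fewer counts.

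Promoter sequence was looked at for the sites that these factors are known to bind. Windows of 300 bases, from 250 before to 50 after the start of the transcript, were at hand from RefSeq (GRCm38.p6) for 33 members, 19 in the ATF4 arm and 14 in the ER arm, and for 12763 genes in all. The amino-acid response element, searched as TGATGNAA on both strands, was found in 7 of the 19 ATF4-arm members (*Aars*, *Asns*, *Chac1*, *Gars*, *Nupr1*, *Slc7a11* and *Trib3*) and in 1 of the 14 ER-arm members (*Herpud1*), against 3.09% of all genes. The holders include *Trib3* and *Chac1*, which rose in Nf2-KO and labelled Rasa1-KO, and also *Slc7a11* and *Herpud1*, which fell in labelled Rasa1-KO, and *Nupr1*, which passed in no comparison. In *Slc7a11* the window holds 2 copies in opposite directions, at 66 to 59 and 47 to 40 bases before the start. In *Trib3* the match lies 15 to 22 bases into the transcript. The cAMP response element TGACGTCA was found in *Ppp1r15a* only, 12 to 5 bases before the start, against 3.21% of all genes.

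The 250 bases before the start of 3 ATF4-arm genes are given 5′ to 3′ on the gene's strand, because the first pair rose and the last fell. Capitals mark TGATGNAA or its reverse complement. *Asns* is at chr6:7693210-7693459, minus strand, *Chac1* at chr2:119350992-119351241, plus strand, and *Slc7a11* at chr3:50443614-50443863, minus strand.
Asns: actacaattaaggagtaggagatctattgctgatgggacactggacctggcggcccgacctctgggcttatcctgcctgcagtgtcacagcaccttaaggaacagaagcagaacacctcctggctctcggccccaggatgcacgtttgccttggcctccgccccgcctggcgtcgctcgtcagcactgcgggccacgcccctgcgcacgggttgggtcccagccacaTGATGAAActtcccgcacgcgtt
Chac1: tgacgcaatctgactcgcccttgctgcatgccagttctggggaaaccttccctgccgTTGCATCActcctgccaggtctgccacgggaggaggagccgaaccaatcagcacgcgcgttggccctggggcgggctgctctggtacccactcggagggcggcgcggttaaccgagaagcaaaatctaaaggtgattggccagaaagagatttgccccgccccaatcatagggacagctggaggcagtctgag
Slc7a11: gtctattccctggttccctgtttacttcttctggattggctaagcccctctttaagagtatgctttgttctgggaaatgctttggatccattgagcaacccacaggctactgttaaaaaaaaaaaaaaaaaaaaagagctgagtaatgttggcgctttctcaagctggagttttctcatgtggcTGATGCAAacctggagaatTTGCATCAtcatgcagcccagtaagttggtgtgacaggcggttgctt

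In the ER arm, the members that rose were chaperones and folding enzymes. *Hspa5*, which encodes BiP, the main ER chaperone, was at 830, 582 and 469 CPM in control. It was at 1495, 1657 and 1684 in Nf2-KO, at 1161, 1099 and 1155 in labelled Rasa1-KO and at 749.5, 645 and 643 in labelled double-KO. Nf2-KO and labelled Rasa1-KO lay wholly above control and did not overlap each other, and labelled double-KO lay within the control range. The log2 fold changes were 1.36 ± 0.18 (adjusted p = 9.2e-05), 0.86 ± 0.18 (adjusted p = 0.0025) and 0.11 ± 0.17 (adjusted p = 0.76).

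*Hsp90b1*, the gene of the ER chaperone GRP94, had a tight control group at 559, 508 and 542 CPM. It reached 1097, 1050 and 932 in Nf2-KO and 812, 874 and 792 in labelled Rasa1-KO, and was 658, 518 and 558 in labelled double-KO. The first 2 groups were above all controls, by 0.94 ± 0.12 (adjusted p = 6.1e-05) and 0.62 ± 0.12 (adjusted p = 0.0013), and the third overlapped them.

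*Pdia6*, a protein disulfide isomerase gene, spread over 298, 188 and 130 CPM in control. It was 366, 387 and 409 in Nf2-KO and 324, 310.4 and 334 in labelled Rasa1-KO, above control in all 6 libraries. The log2 fold change of 0.92 ± 0.23 (adjusted p = 0.0076) in Nf2-KO missed the threshold when the fit held the compared groups alone. The change of 0.65 ± 0.23 (adjusted p = 0.039) in labelled Rasa1-KO did so in that fit too, and when any of the labelled Rasa1-KO libraries, control 1 or control 2 was left out.

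*Canx*, a lectin chaperone gene, rose in Nf2-KO by 0.41 ± 0.10 (adjusted p = 0.0066), from 814, 686 and 692 CPM in control to 969, 1003 and 932. *Manf*, which encodes a secreted ER stress protein, rose there by 0.55 ± 0.17 (adjusted p = 0.023), from 91, 60.9 and 54.2 to 100.3, 97.2 and 104 CPM. The call of *Manf* was lost when Nf2-KO 1, Nf2-KO 3, control 1 or control 2 was left out.

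The members that fell in Nf2-KO and labelled Rasa1-KO were *Xbp1*, *Ern1* and *Herpud1*. *Xbp1*, the transcription factor gene whose mRNA IRE1 splices, was at 280.2, 307 and 297 CPM in control, 168, 179.8 and 178 in Nf2-KO, 171, 165 and 174 in labelled Rasa1-KO and 245, 286 and 285 in labelled double-KO. The 6 libraries of the middle groups were below all others, with log2 fold changes of -0.75 ± 0.09 (adjusted p = 5.5e-05) and -0.80 ± 0.09 (adjusted p = 4.8e-05).

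*Herpud1*, whose product sits in the ER membrane and takes part in degradation of misfolded proteins, was at 442, 385 and 295 CPM in control. It was at 223, 224 and 254 in Nf2-KO, 238, 224 and 234 in labelled Rasa1-KO and 283, 315 and 321 in labelled double-KO. Nf2-KO and labelled Rasa1-KO lay below every control library, by -0.68 ± 0.14 (adjusted p = 0.0018) and -0.69 ± 0.14 (adjusted p = 0.0018), while labelled double-KO overlapped control (-0.29 ± 0.14, adjusted p = 0.24).

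*Ern1* was the ER-arm member that moved in opposite directions. It was at 51.0, 70.9 and 68.7 CPM in control, 52.8, 47.3 and 42.4 in Nf2-KO, 41.2, 46.5 and 38.3 in labelled Rasa1-KO and 98.3, 87.6 and 89.1 in labelled double-KO. The labelled double-KO libraries were the highest and the labelled Rasa1-KO libraries lay below all controls, whereas Nf2-KO overlapped control unnumbered. The log2 fold changes were -0.60 ± 0.14 (adjusted p = 0.0052) in labelled Rasa1-KO, -0.42 ± 0.14 (adjusted p = 0.029) in Nf2-KO and 0.53 ± 0.14 (adjusted p = 0.043) in labelled double-KO. The Nf2-KO call was lost when Nf2-KO 2, Nf2-KO 3, control 1 or control 2 was left out, and the labelled double-KO call when any labelled double-KO library was.

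The other 8 ER-arm members, *Calr*, *Pdia3*, *Pdia4*, *Dnajb9*, *Sdf2l1*, *Creld2*, *Atf6* and *Edem1*, passed in none of the 5 comparisons of the 4-group fit with no block. *Calr*, a calcium-binding lectin chaperone gene, had 1027, 604 and 325 CPM in control, so that the control libraries alone spanned the values of Nf2-KO (862, 929 and 974). *Sdf2l1*, a partner of BiP, had 43.4, 22.7 and 18.2 in control and 37.5, 46.8 and 51.7 in Nf2-KO. *Atf6* and *Edem1* were narrow in all groups, with means of 112 to 132 CPM for *Atf6* and 110 to 127 CPM for *Edem1*. Without control unnumbered, *Calr*, *Pdia4*, *Sdf2l1* and *Creld2* passed as higher and *Dnajb9* as lower in both Nf2-KO and labelled Rasa1-KO, and *Pdia3* passed as lower in labelled Rasa1-KO. With the block by table names, *Calr*, *Pdia4*, *Sdf2l1*, *Creld2* and *Atf6* passed as higher and *Dnajb9* as lower in Nf2-KO, and *Pdia4*, *Sdf2l1* and *Creld2* passed as higher in labelled Rasa1-KO, at the backgrounds given for that block.

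**Figure D4:**
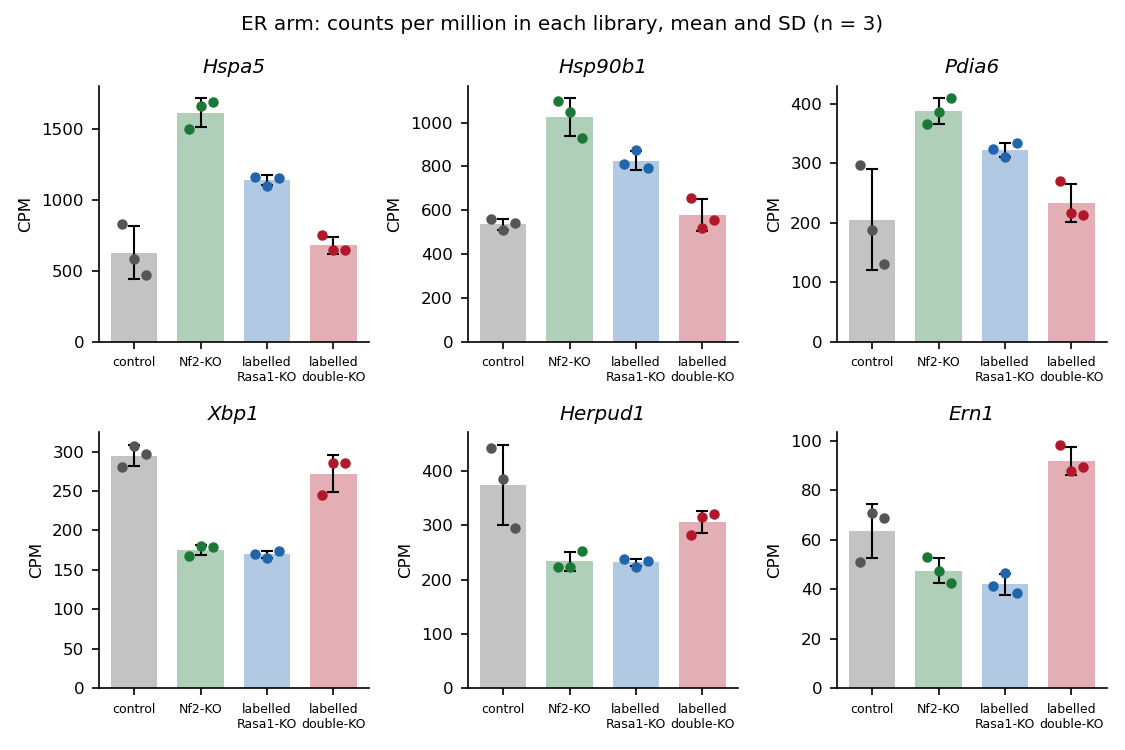
CPM (vertical axis, linear from 0) of 6 ER-arm genes in the 4 groups. Points are libraries, bars are means and whiskers are SDs (n = 3). The upper 3 genes are higher in Nf2-KO and labelled Rasa1-KO, *Xbp1* and *Herpud1* are lower there, and *Ern1* is highest in labelled double-KO.

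Levels per length, as the deposited FPKM, differed widely among the members. In control, FPKM was 316 ± 157 for *Calr* and 233 ± 57.0 for *Hspa5*, and 3.17 ± 0.278 for *Chac1* and 4.25 ± 0.179 for *Trib3*. In Nf2-KO the level of *Hspa5* was 580.4 ± 38.5 FPKM and that of *Trib3* 31.8 ± 1.74 FPKM.

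The 2 arms differed in the sites found in their promoters. The arms were drawn up by pathway, so this difference may follow in part from how the list was made. The ER stress response element, searched as CCAAT and CCACG 9 bases apart on both strands, was found in 6 of the 14 ER-arm members (*Calr*, *Canx*, *Creld2*, *Hsp90b1*, *Hspa5* and *Pdia6*), in 0 of the 19 ATF4-arm members and in 0.172% of all genes. Of those 6, *Hspa5*, *Hsp90b1*, *Pdia6* and *Canx* rose in Nf2-KO, and *Calr* and *Creld2* did not pass. *Hsp90b1* holds it on both strands, at 212 to 194 and at 107 to 89 bases before the start. The second form, ATTGG and CCACG 1 base apart, was found in *Herpud1* alone among the members, against 0.0705% of all genes, 52 to 42 bases before the start and beside an amino-acid response element at 112 to 105. The unfolded-protein response element TGACGTGG was in no member window and in 0.972% of all genes. A match is a run of letters and not a shown binding site.

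The 250 bases before the start of 3 ER-arm genes are given in the same way, because the first pair rose and *Herpud1* fell. Capitals mark the elements named above, on either strand. *Hspa5* is at chr2:34771840-34772089, plus strand, *Hsp90b1* at chr10:86705445-86705694, minus strand, and *Herpud1* at chr8:94386179-94386428, plus strand.
Hspa5: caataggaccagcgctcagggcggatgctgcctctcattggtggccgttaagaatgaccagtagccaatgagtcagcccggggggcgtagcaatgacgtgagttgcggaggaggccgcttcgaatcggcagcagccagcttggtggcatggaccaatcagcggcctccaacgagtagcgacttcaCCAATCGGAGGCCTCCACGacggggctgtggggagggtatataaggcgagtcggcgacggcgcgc
Hsp90b1: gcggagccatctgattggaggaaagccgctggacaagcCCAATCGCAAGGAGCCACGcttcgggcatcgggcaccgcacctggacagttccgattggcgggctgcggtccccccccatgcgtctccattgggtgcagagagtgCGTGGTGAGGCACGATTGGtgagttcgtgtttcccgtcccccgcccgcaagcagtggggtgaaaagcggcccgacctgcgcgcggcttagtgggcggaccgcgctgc
Herpud1: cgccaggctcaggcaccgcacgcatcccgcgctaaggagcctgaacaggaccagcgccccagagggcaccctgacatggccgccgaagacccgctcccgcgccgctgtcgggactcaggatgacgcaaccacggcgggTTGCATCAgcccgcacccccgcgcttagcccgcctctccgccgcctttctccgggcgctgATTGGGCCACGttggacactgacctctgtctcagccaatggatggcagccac

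Set against each other, the libraries labelled double-KO and labelled Rasa1-KO differed in 13 ATF4-arm members, 11 of them lower in labelled double-KO, at a background of 16.3% of all genes higher and 14.0% lower. The median log2 difference was -0.47 in the ATF4 arm, -0.06 in the ER arm and 0.005 over all genes. The lowest values were those of *Ddit3* at -2.19 ± 0.39 (adjusted p = 0.0017), *Trib3* at -1.69 ± 0.12 (adjusted p = 2.6e-06) and *Atf4* at -1.12 ± 0.19 (adjusted p = 0.0012). The 2 that were higher in labelled double-KO were the transporters *Slc7a11* (1.22 ± 0.16, adjusted p = 2.6e-04) and *Slc7a5* (0.36 ± 0.09, adjusted p = 0.012). The call of *Slc7a5* was lost without labelled Rasa1-KO unnumbered or 2, and that of *Aars* (-0.35 ± 0.11, adjusted p = 0.038) when any library of either group was left out.

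In the ER arm 3 members were higher and 2 lower in labelled double-KO than in labelled Rasa1-KO. *Ern1* (1.13 ± 0.14, adjusted p = 1.6e-04), *Xbp1* (0.68 ± 0.09, adjusted p = 2.7e-04) and *Herpud1* (0.40 ± 0.14, adjusted p = 0.042) were higher, and *Hspa5* (-0.74 ± 0.18, adjusted p = 0.0081) and *Hsp90b1* (-0.52 ± 0.12, adjusted p = 0.0061) lower. The *Herpud1* call was lost when any library of the pair other than labelled double-KO 1 was left out. With the labels exchanged these directions turn, so that double-KO would be the group with high *Trib3* and low *Xbp1*.

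Between labelled Rasa1-KO and Nf2-KO the 4-group fit called few members. In it 4 ATF4-arm members were lower in labelled Rasa1-KO, none higher and no ER-arm member was called, at a background of 1.92% higher and 1.74% lower. Most estimates lay below 0, with 3 of 20 ATF4-arm and 1 of 16 ER-arm members above it. The medians were -0.24 and -0.14, against 0.007 over all genes. For the ER arm, 2 members were under an unadjusted p of 0.05 in edgeR, DESeq2 called 0, and *Hspa5*, whose libraries did not overlap, had -0.50 ± 0.17 (adjusted p = 0.17). The 4 were *Trib3* (-0.55 ± 0.11, adjusted p = 0.02), *Chac1* (-0.64 ± 0.16, adjusted p = 0.048), *Slc7a11* (-0.66 ± 0.16, adjusted p = 0.046) and *Slc7a5* (-0.46 ± 0.09, adjusted p = 0.019). A fit of these 2 groups alone called 15 ATF4-arm members (14 lower, 1 higher) and 6 ER-arm members (all lower), at a background of 12% higher and 13.8% lower. The calls of the 4-group fit were fragile: *Trib3*, *Chac1* and *Slc7a11* lost them whichever library of the pair was left out, and *Slc7a5* in all cases but labelled Rasa1-KO 1.

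**Figure D5:**
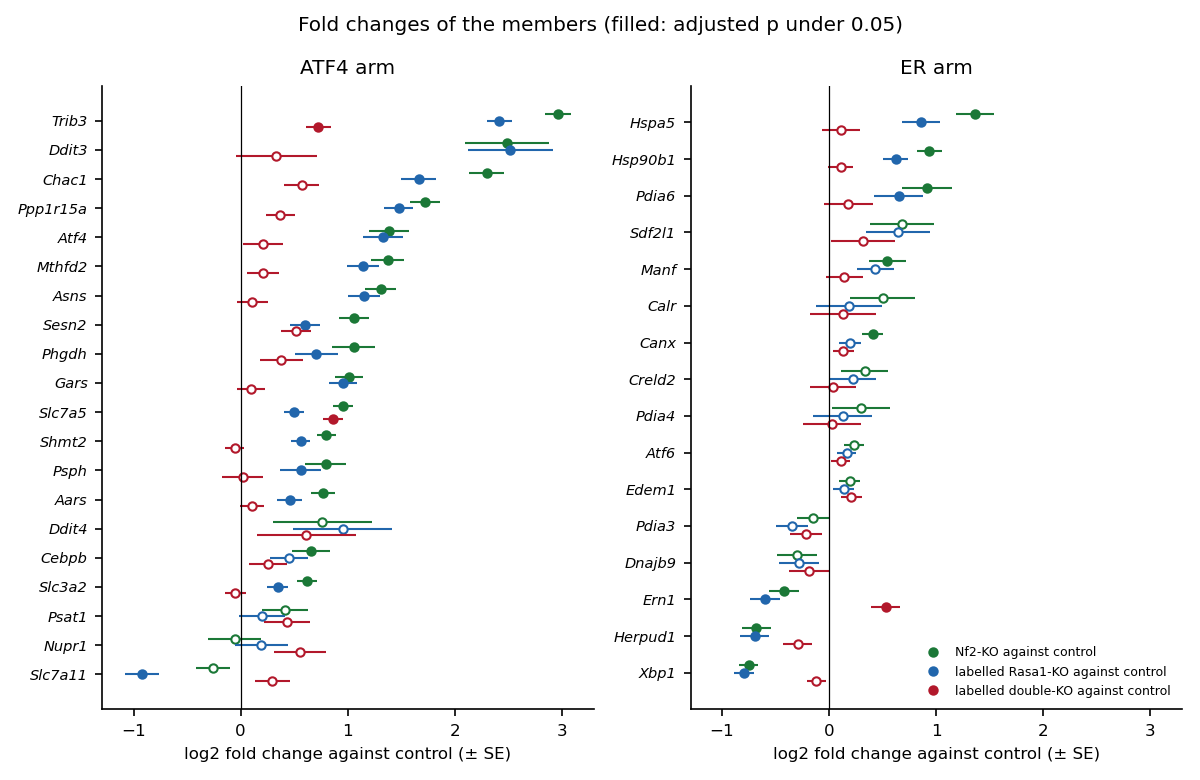
Log2 fold change against control (horizontal axis, ± SE) of each member in Nf2-KO, labelled Rasa1-KO and labelled double-KO. Filled points have an adjusted p under 0.05. The 3 comparisons share the same control libraries. *Trib3* has the largest change in Nf2-KO, and *Ern1* lies to the left of 0 in Nf2-KO and labelled Rasa1-KO and to the right in labelled double-KO.

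The design allows a test of whether the double knockout departs from the sum of the single knockouts on the log2 scale, if the groups are named rightly. Under the given labels, the group taken as double knockout had *Nf2* mRNA near control (58.9 against 58.2 CPM). The group taken as the single *Rasa1* knockout had 11.9 CPM. A departure under these labels therefore cannot be told apart from an exchange of the 2 groups. With the labels as given, 17 ATF4-arm members departed (16 below the sum, *Slc7a11* above it) and 8 ER-arm members did (5 below, 3 above), at a background of 52.4% of all genes in either direction. The ER-arm count was no more than that background. *Trib3* lay -4.66 ± 0.17 from the sum and *Ddit3* -4.67 ± 0.56, while *Slc7a11* lay 1.48 ± 0.23 and *Ern1* 1.55 ± 0.20. With the labels exchanged, 5 ATF4-arm members lay below the sum and 0 ER-arm members departed by the adjusted p of edgeR (4 at an unadjusted p under 0.05), at a background of 6.41%. The 5 were *Slc7a5* (-1.32 ± 0.13), *Trib3* (-1.28 ± 0.16), *Chac1* (-1.21 ± 0.22), *Sesn2* (-0.97 ± 0.20) and *Slc7a11* (-0.96 ± 0.23).

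Genes of the same pathways outside the 36 were counted against the same backgrounds, 20.6% higher and 22.2% lower in Nf2-KO, 19.7% and 22.2% in labelled Rasa1-KO, and 4.0% and 2.46% in labelled double-KO. These lists and those below were chosen with earlier results of these data known, so their counts are no separate support. Of 26 other amino-acid response genes, 18 were higher and 2 lower in Nf2-KO, 17 and 2 in labelled Rasa1-KO, and 6 and 0 in labelled double-KO, with a median of 1.04 in Nf2-KO. *Aldh1l2*, a mitochondrial folate enzyme gene, rose by 4.39 ± 0.12 there. *Fgf21*, a stress hormone gene, had 12, 2 and 6 counts in control and 280, 401 and 322 in Nf2-KO, too few in control for a fold. *Cbs*, of cysteine synthesis, stood at -1.92 ± 0.39, and *Slc7a3*, a cationic amino-acid transporter gene, at -1.49 ± 0.36. Of 18 further cytoplasmic tRNA synthetases, 13 were higher and 0 lower in Nf2-KO, 12 and 0 in labelled Rasa1-KO, and 1 and 0 in labelled double-KO, with *Cars* at 1.20 ± 0.09 and *Eprs* at 1.16 ± 0.15. Of 16 genes of the eIF2 machinery, 7 were higher and 3 lower in Nf2-KO and 7 and 4 in labelled Rasa1-KO. Those in Nf2-KO included the eIF2 subunits *Eif2s2* (1.18 ± 0.15) and *Eif2s1* (0.74 ± 0.15), and *Eif2ak2* (-0.63 ± 0.14), which encodes the kinase PKR, and *Impact* (-0.62 ± 0.15).

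The ER lists are given as counts, which for the folding genes and the degradation and translocation genes lay near or below the shares of all genes. Of 9 further sensors and processing enzymes, 0 were higher and 4 lower in Nf2-KO, with *Creb3l1* at -2.36 ± 0.57 and *Creb3l2* at -1.71 ± 0.42, both ER-bound transcription factor genes. Of 25 other ER folding genes, 7 were higher and 3 lower. *Ero1l*, the oxidase that feeds disulfide formation and is also a hypoxia target, rose by 2.81 ± 0.15 and *Fkbp11* by 1.48 ± 0.18, while *Dnajc10* stood at -1.21 ± 0.10 and *Fkbp14* at -0.61 ± 0.17. Of 25 degradation and translocation genes, 7 were higher and 1 lower, with the signal peptidase subunit *Spcs3* at 1.13 ± 0.11, *Derl3* at 1.10 ± 0.39 and *Erlec1* at -1.51 ± 0.17. In labelled double-KO these 3 lists had 0 and 0, 2 and 1, and 1 and 0 members higher and lower, and 2 of the sensors and processing enzymes were under an unadjusted p of 0.05.

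Genes of other stress pathways that share members with the arms were counted the same way, against the same 20.6% and 22.2% in Nf2-KO. Of 13 cytosolic heat-shock genes, 4 were higher and 3 lower in Nf2-KO, with *Hsp90aa1* at 0.83 ± 0.17, *Hspb8* at 0.82 ± 0.18, *Hspa1b* at -1.05 ± 0.13 and *Hspa1a* at -0.89 ± 0.18. Of 9 NRF2 targets, which share *Slc7a11* with the ATF4 arm, 1 was higher and 2 lower, with *Hmox1* at 2.21 ± 0.18, *Osgin1* at -2.14 ± 0.30 and *Gclm* at -1.001. Of 10 hypoxia genes, 9 were higher and none lower in Nf2-KO, 10 in labelled Rasa1-KO and 6 in labelled double-KO, with *Car9* at 2.50 ± 0.33 and *Bnip3* at 2.30 ± 0.26 in Nf2-KO. The hypoxia list shares *Vegfa* and *Ndrg1* with the other amino-acid response genes, and the part of hypoxia in the members' values was not tested. Of the marker lists, 2 of 6 epithelial genes were lower in Nf2-KO and none higher, 1 of 2 leukocyte genes (*Cd68*) was higher, 1 of 2 endothelial genes was higher and 1 lower, and 4 of 5 fibroblast genes were higher and 1 lower.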

How the data were processed

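RNA of 12 tumorsphere libraries (TruSeq Stranded Total RNA Gold, ribosomal RNA removed) was sequenced by the authors, whose processing notes name Trimmomatic 0.38, HISAT2 2.1.0 with the mm10 build, SAMtools 1.9 and StringTie 2.1.3b. The deposited tables give raw read counts per gene, FPKM and TPM, and a log2 column whose transform is not given. Counts were used for tests, FPKM for levels per length and 1 alternative, and the deposited TPM and log2 values not at all. The tables list 18926 genes, none at 0 in any library (*Gdf15*, *Cldn7*, *Lyz2*, *Cd3e*, *Cd79a*, *Itgam*, *Cdh5*, *Tek* and *Lum* of the lists are not analysed here).

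In edgeR 4.0.16 (R 4.3.3), filterByExpr kept 18053 genes, including all 36 members, and removed 873. TMM factors and 1 quasi-likelihood fit over the 12 libraries gave 5 comparisons and the departure from additivity, with p-values adjusted over all genes (Benjamini-Hochberg) and a call at an adjusted p under 0.05. Standard errors are the log2 fold change divided by the square root of F. Per-library differences used log2 CPM with a prior count of 2. The script was tested on simulated data. The members and lists (other amino-acid response, tRNA synthetase, eIF2 machinery, sensors, ER folding, degradation and translocation, heat-shock, NRF2, hypoxia, and epithelial, leukocyte, endothelial and fibroblast markers) were chosen with earlier results of these data known. Every member called in any comparison is described. Of each other list, at most the 2 that rose most and the 2 that fell most in Nf2-KO are named, apart from genes named for an overlap, a shared list or the label check. Groups come from the labels. Alternatives were DESeq2 1.42.0, limma 3.58.1 on log2(FPKM + 1), RLE size factors, no filter, the study's rule (fold of at least 3, unadjusted p under 0.05), only the groups compared, exchanged labels, each library left out and replicate blocks. By the numbers in the titles, 4 of 14 same-numbered pairs had deviations correlated over 0.1. By the numbers in the table names, the 3 control and labelled double-KO pairs had 0.626, 0.313 and 0.444, and 5 of 14 pairs in all were over 0.1. Gene positions and promoters are from RefSeq (GRCm38.p6).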

Additional observations from a re-analysis of the deposited data

Results flagged for a closer look

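The effect of 1 knockout was compared in cells with and without the other by the test of the departure from additivity. With the labels as given, 17 of the 20 ATF4-arm members and 8 of the 16 ER-arm members had effects that differed in this way (edgeR's quasi-likelihood test, adjusted p under 0.05), as did 52.4% of all genes tested. The ER-arm count was no more than that share. *Nf2* mRNA and the table names go against these labels, and which labels are right was not settled beyond that. These departures cannot be told apart from an exchange of labelled Rasa1-KO and labelled double-KO. With the labels exchanged, 5 ATF4-arm members did, as did 6.41% of all genes, and 0 ER-arm members (4 at an unadjusted p under 0.05). *Trib3* lay -4.66 ± 0.17 from the sum in the first case and -1.28 ± 0.16 in the second, as log2 departure ± SE. *Slc7a11* lay 1.48 ± 0.23 and -0.96 ± 0.23, on opposite sides.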

How the results depend on the processing

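The lowest count of a member in any library was 242. The spread among the control libraries was wide for many members, control 2 had 43818139 counts against 95340850 in control unnumbered, and the part of depth in that spread was not tested. RLE size factors left all 10 counts of called members as they were, and DESeq2, limma on log2 FPKM and the absence of a filter moved them by less than 1.5 times, except that DESeq2 called 4 ATF4-arm members in labelled double-KO against control and limma 0 in its ER arm. The study's rule of a fold of at least 3 and an unadjusted p under 0.05 called 4 ATF4-arm members in Nf2-KO, 3 in labelled Rasa1-KO, 0 in labelled double-KO, 2 between the latter 2 groups and 0 between labelled Rasa1-KO and Nf2-KO, and 0 ER-arm members in each. Of all 18053 genes tested, the rule called 678 higher and 1377 lower in Nf2-KO, 570 and 1103 in labelled Rasa1-KO, and 104 and 263 in labelled double-KO. It called 657 and 364 between labelled double-KO and labelled Rasa1-KO, and 144 and 88 between labelled Rasa1-KO and Nf2-KO.

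A fit of the compared groups alone gave 4 ER-arm calls in Nf2-KO, 0 and 0 in the 2 arms in labelled double-KO, and 15 ATF4-arm and 6 ER-arm calls between labelled Rasa1-KO and Nf2-KO. Over all genes that fit called 5130 in Nf2-KO, 4532 in labelled Rasa1-KO, only 18 in labelled double-KO, and 4527 between labelled Rasa1-KO and Nf2-KO. The 4-group fit had called 3710 higher and 4011 lower in Nf2-KO, and 722 and 444 in labelled double-KO. In the fit of the compared groups, *Canx*, *Pdia6*, *Manf* and *Ern1* lost their call in Nf2-KO, and *Sesn2*, *Phgdh*, *Psph*, *Slc3a2*, *Aars* and *Pdia6* in labelled Rasa1-KO, where the ATF4 arm had 11 calls. The cause was not tested.

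Leaving out 1 library at a time gave 6 to 13 ER-arm calls in Nf2-KO and 5 to 14 in labelled Rasa1-KO. The calls over all genes moved too, from 5831 to 11197 in Nf2-KO and from 5583 to 10993 in labelled Rasa1-KO. In labelled double-KO, leaving out 1 library gave 2 to 14 ATF4-arm and 0 to 6 ER-arm calls, the highest without control unnumbered in each case. All genes there had 487 to 5477 calls. Between labelled Rasa1-KO and Nf2-KO there were 0 to 1 ATF4-arm calls, with 210 to 271 over all genes. The ATF4 arm kept 16 to 19 calls in Nf2-KO and 14 to 19 in labelled Rasa1-KO. Without both control unnumbered and control 2, an alternative chosen after seeing the data that leaves 1 control library assumed to vary like the other groups, labelled double-KO had 6 ATF4-arm and 0 ER-arm calls.

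With the numbers of the titles as a replicate block, no ATF4-arm member (0) passed between labelled Rasa1-KO and Nf2-KO and no ER-arm member (0) in labelled double-KO. Over all genes that block called 227 in the first comparison and 501 in the second. The title numbers are shared by name only. The replicate block by table names, chosen after seeing the data, gave 14 ER-arm calls in Nf2-KO (10 higher, 4 lower), 11 in labelled Rasa1-KO, 7 ATF4-arm calls in labelled double-KO, 10 ER-arm calls between the latter 2 groups and 1 between labelled Rasa1-KO and Nf2-KO. Over all genes this block called 7569 between labelled double-KO and labelled Rasa1-KO, and 1563 between labelled Rasa1-KO and Nf2-KO.

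With the labels Rasa1-KO and double-KO exchanged, Rasa1-KO had 2 ATF4-arm and 1 ER-arm calls against control and double-KO 16 and 6, and Rasa1-KO against Nf2-KO had 15 and 6. Against control, the log2 values of Rasa1-KO then turned for *Shmt2* (-0.055), *Slc7a11* (0.30), *Slc3a2* (-0.048) and *Ern1* (0.53), and those of double-KO for *Shmt2* (0.56), *Slc7a11* (-0.92), *Slc3a2* (0.35) and *Ern1* (-0.60). Between double-KO and Rasa1-KO the exchange turns every sign by construction, which is no separate result. The values of the calls then read *Atf4* 1.12, *Ddit3* 2.19, *Asns* 1.04, *Trib3* 1.69, *Chac1* 1.09, *Shmt2* 0.62, *Mthfd2* 0.93, *Slc7a11* -1.22, *Slc7a5* -0.36, *Slc3a2* 0.39, *Aars* 0.35, *Gars* 0.86, *Ppp1r15a* 1.10, *Hspa5* 0.74, *Hsp90b1* 0.52, *Xbp1* -0.68, *Herpud1* -0.40 and *Ern1* -1.13. Between Rasa1-KO and Nf2-KO, *Ddit3* (-2.15), *Slc7a11* (0.56), *Xbp1* (0.63), *Herpud1* (0.39) and *Ern1* (0.95) turned.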
